A study of Mus musculus with 6 samples.

Results

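The nuclear genes of the mitochondrial respiratory chain were taken by symbol from the gene count table: every row whose name begins with Nduf, Uqcr, Cox4i, Cox5, Cox6, Cox7 or Cox8, with Sdha, Sdhb, Sdhc and Sdhd. This gave 76 of 24495 rows, split here into 7 core subunits, 29 accessory subunits and 8 assembly factors of complex I, 4 subunits of complex II, 8 of complex III, 11 widely expressed subunits and 8 tissue-restricted isoforms of complex IV, and the supercomplex factor Cox7a2l. RNA came from spermatogonial stem cells, which sustain sperm production, grown in culture from testes of DBA2 mice aged 5 to 8 days. Cultures received either 2 uM EPZ5676 (pinometostat), which inhibits the histone H3 methyltransferase DOT1L, or 0.2% ethanol as its vehicle, each for 2 weeks, with 3 libraries in each group. The series calls the libraries biological triplicates, and whether they came from separate animals or from separate dishes of a single culture is not given in the sources used here. The design asks which transcripts differ after DOT1L inhibition.

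The respiratory chain passes electrons from NADH through complex I, or from succinate through complex II, to ubiquinone, then through complex III and cytochrome c to complex IV, where oxygen is reduced. Complexes I, III and IV pump protons, and the gradient drives ATP synthase. Complex II is made from nuclear genes alone, while the other complexes combine nuclear with mitochondrially encoded subunits. Several complex IV subunits have tissue-restricted isoforms, among them testis forms that are known from later germ cells and sperm. The transcription factor NRF1 is a known regulator of nuclear respiratory chain genes.

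Promoter sequence was read from RefSeq on GRCm38.p6, which is the reference and not DBA2 sequence, for the 61 members that could be matched by symbol, as the 250 bases before the start of the gene. The NRF1 consensus, 10 letters with C or T at the sixth, was present in 5 of 61 member windows (8.20%), against 2.57% of all 17573 windows matched to the count table, searched on both strands. The NRF1 half-site TGCGCA, which can overlap the consensus, was present in 12 member windows (19.7%) against 8.32% of all windows. The letters CCGGAAG, bound by GABPA, stood in 10 member windows (16.4%) against 9.08%, and the YY1 letters AAGATGGC stood in 0, against 1.60%. The 5 members with the consensus are shown with 15 bases on each side of it, and capitals mark the match. Cox6a1 lies at chr5:115349096-115349135, Ndufb4 at chr16:37654535-37654574 and Sdhd at chr9:50603904-50603943, all on the minus strand. Ndufa11 lies at chr17:56717687-56717726 and Ndufaf4 at chr4:24897955-24897994, both on the plus strand.
Cox6a1: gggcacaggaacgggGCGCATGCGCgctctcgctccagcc
Ndufb4: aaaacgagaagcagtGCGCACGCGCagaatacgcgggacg
Sdhd: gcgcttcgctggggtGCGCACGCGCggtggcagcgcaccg
Ndufa11: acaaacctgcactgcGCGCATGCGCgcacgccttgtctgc
Ndufaf4: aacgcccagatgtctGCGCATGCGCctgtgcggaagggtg
A match describes letters in these windows and is not evidence of binding in these cells.

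Whole windows are shown for Ndufa12, the member with the highest fold change, and for the complex IV pair Cox7b2 and Cox7b, a testis isoform and its widely expressed counterpart. The Ndufa12 window (chr10:94198785-94199034, plus strand) held 22 CpG dinucleotides. The Cox7b2 window (chr5:71548206-71548455, minus strand) held 9, and the Cox7b window (chrX:106015450-106015699, plus strand) held 5.
Ndufa12: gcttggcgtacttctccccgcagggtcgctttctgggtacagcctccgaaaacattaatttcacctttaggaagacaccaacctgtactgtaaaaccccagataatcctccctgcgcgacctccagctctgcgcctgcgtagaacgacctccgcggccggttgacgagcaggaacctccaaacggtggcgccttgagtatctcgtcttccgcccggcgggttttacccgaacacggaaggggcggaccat
Cox7b2: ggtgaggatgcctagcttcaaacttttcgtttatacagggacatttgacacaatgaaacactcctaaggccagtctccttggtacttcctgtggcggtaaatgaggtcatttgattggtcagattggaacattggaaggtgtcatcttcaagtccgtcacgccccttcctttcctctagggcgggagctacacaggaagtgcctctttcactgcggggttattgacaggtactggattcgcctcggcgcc
Cox7b: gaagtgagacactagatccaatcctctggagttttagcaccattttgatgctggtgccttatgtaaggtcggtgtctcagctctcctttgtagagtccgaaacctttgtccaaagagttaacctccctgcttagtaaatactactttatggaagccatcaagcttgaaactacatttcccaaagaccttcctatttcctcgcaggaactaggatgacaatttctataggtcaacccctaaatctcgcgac
None of the 4 searched motifs was found in these 3 windows, and so no letters are in capitals. The median was 14 CpG over the 61 member windows and 10 over all windows, with 6 in the 4 matched tissue-restricted isoforms and 14 in the 9 matched widely expressed complex IV subunits.

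Gene counts totalled 17784332 to 54645903 per library, and the EPZ5676 library numbered 2 was the deepest. The members took 0.605%, 0.562% and 0.580% of counts in EPZ5676 libraries 1, 2 and 3, and 0.600%, 0.512% and 0.592% in the ethanol libraries. Both libraries numbered 2 stood apart on the first principal component of all genes, and their summed fibroblast markers were also the highest, at 1774 CPM in EPZ5676 and 2283 CPM in ethanol, against 1335 to 1454 CPM in the other 4. Not all of the 13 fibroblast markers followed their sum. Pdgfra was lowest in library 2 of both groups, and Dcn was lowest in EPZ5676 library 2. Lum, Fbn1 and Fn1 were not the highest in EPZ5676 library 2. The remaining markers were highest in library 2 of both groups. Of the 13 fibroblast markers, 2 were higher and 11 lower in EPZ5676 by fold, and 0 were called, as over all genes. In the edgeR fit with the library number as a block, given below, 1 was higher and 7 lower at an unadjusted p under 0.05. That is 61.5%, against 18.5% of all genes. CPM values are counts scaled to library size, with TMM factors. All 12 spermatogonial markers were tested, with sums of 3734 to 3887 CPM in EPZ5676 and 3507 to 4005 CPM in ethanol. Dazl took the largest part of these sums. Of the 12, 7 were higher and 5 lower in EPZ5676 by fold, and 0 were called. With the block, 1 was higher and 3 lower at an unadjusted p under 0.05 by edgeR (33.3%). Gfra1 was lower without overlap, at 44.0 to 59.3 CPM in EPZ5676 and 66.5 to 73.0 CPM in ethanol. Etv5 was higher in EPZ5676 without overlap. Of 9 spermatid markers, 6 fell under the filter on low counts. In such bulk RNA, fewer cells of a type and less RNA per cell cannot be told apart.

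The nuclear respiratory chain genes were at similar levels in EPZ5676 and ethanol cells. Summed over all 76 genes, the level was 6151, 5570 and 5840 CPM in EPZ5676 and 5968, 5105 and 5919 CPM in ethanol, or 5854 ± 290 CPM against 5664 ± 485 CPM (SD, n = 3 each). The 2 ranges overlapped, and the difference was smaller than the spread within either group. EPZ5676 was the higher in libraries 1 and 2 and the lower in library 3, each against the ethanol library of its number. Of the 76 genes, 72 passed the filter on low counts, and no member was called by edgeR's quasi-likelihood test at an adjusted p under 0.05 over the 14855 genes tested, of which 0% were called. The smallest adjusted p of a member was 0.586. At an unadjusted p under 0.05 the test gave 1 member, Ndufa12, which was higher in EPZ5676, or 1.39% of the 72, against 7.41% of all genes (3.84% higher and 3.57% lower). DESeq2 called 50 genes and limma-voom 0 (1122 at an unadjusted p under 0.05), in both cases with 0 members called.

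The sources do not say what the replicate numbers stand for. Libraries with the same number deviated together over all genes, so a fit with the number as a block was also made. It called 97 genes, or 0.653%, and again 0 members, with a smallest adjusted p of 0.0711, for Ndufa12. At an unadjusted p under 0.05 it gave 8 members, 5 higher and 3 lower in EPZ5676 (11.1%), against 18.5% of all genes (9.01% higher and 9.51% lower). Of the 72 tested members, the 2 groups did not overlap for 4, with Ndufa12, Ndufb10 and Ndufv2 higher and Ndufb3 lower in EPZ5676. That is 5.56%, against 14.9% of all genes tested.

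The fitted differences were small. The median log2 fold change was 0.03 over the 72 members, 44 above 0 and 28 below, against -0.0066 over all genes tested. The size of the log2 fold change without its sign had a median of 0.075 in members and 0.12 over all genes, and its SE had a median of 0.11 against 0.15. The members were also more abundant, with a median of 49.4 CPM against 21.7 CPM, and the part of this in the smaller SE was not tested. The 95% interval, from the fit without the block, included 0 for 71 of the 72 members. It lay within a 2-fold difference in either direction for all 72, and within 1.5-fold for 61.

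**Figure D1:**
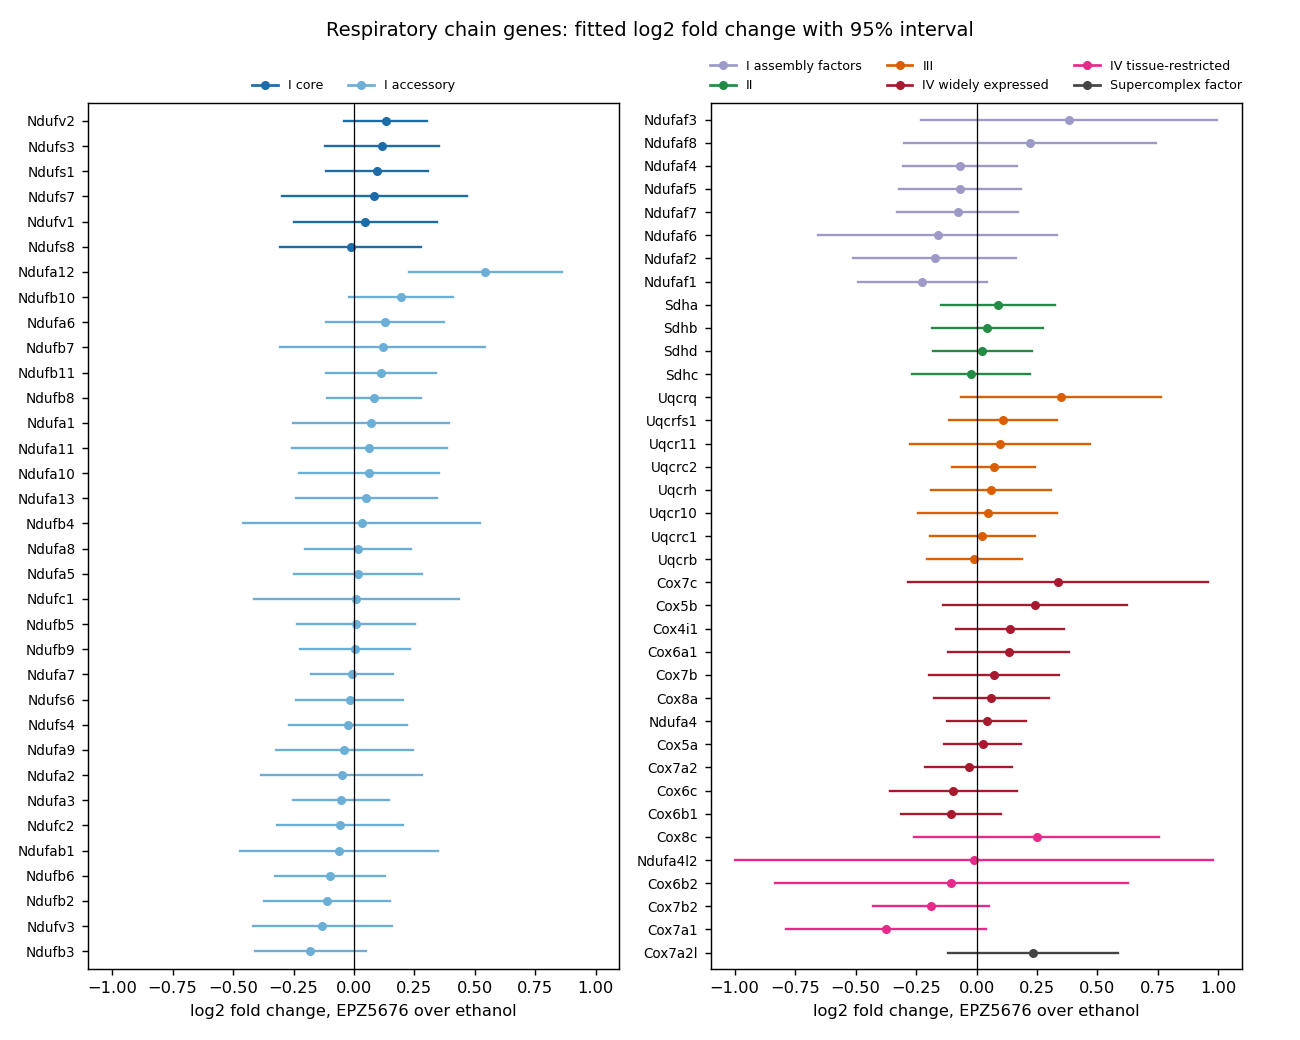
Fitted log2 fold change, EPZ5676 over ethanol (x axis), with its 95% interval for 71 of the 72 members that passed the filter, by complex. Intervals are from the fit without the replicate block. All intervals but that of Ndufa12 cross 0, and all lie within 1 log2 unit of 0.

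The medians by complex were 0.094 for the 7 complex I core subunits, 0.0096 for the 28 tested accessory subunits, -0.074 for the 8 complex I assembly factors, 0.035 for the 4 subunits of complex II, 0.065 for the 8 of complex III, 0.060 for the 11 widely expressed subunits of complex IV and -0.10 for its 5 tested tissue-restricted isoforms. These are descriptions and were not tested. The 5 genes with the NRF1 consensus, shown above, had log2 fold changes of 0.13 ± 0.11 for Cox6a1, 0.06 ± 0.14 for Ndufa11, 0.03 ± 0.21 for Ndufb4, 0.02 ± 0.09 for Sdhd and -0.07 ± 0.10 for Ndufaf4. Without the ethanol library numbered 2, the median over all members was -0.036, that of complex II was -0.059 and that of widely expressed complex IV was -0.0029. This library was the lowest of its group for 57 of 72 members (79.2%), against 43.8% of all genes, and EPZ5676 library 2 was the lowest of its group for 41 (56.9%, against 37.3%). Both are the libraries with the highest summed fibroblast and spermatocyte markers, and the part of such RNA in the member levels was not tested.

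**Figure D2:**
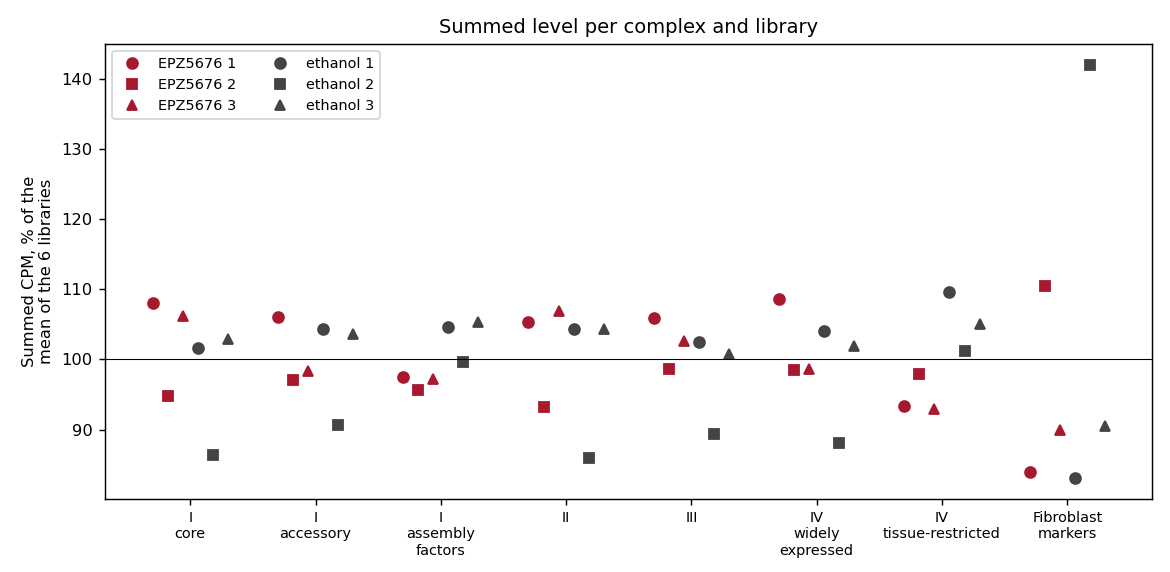
Summed CPM of each complex in each library, as a percentage of the mean of the 6 libraries (y axis), with fibroblast markers at the right; symbols give the replicate number. The libraries numbered 2 (squares) are the lowest of their groups in complexes I (subunits), II, III and IV (widely expressed) and the highest in fibroblast markers.

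Complex I core subunits carry the flavin and the iron-sulfur clusters, and 6 of the 7 had a fold change above 0. Their summed level was 822 ± 57.3 CPM in EPZ5676 and 774 ± 73.3 CPM in ethanol. Ndufv2, an iron-sulfur subunit of the NADH-oxidising module, measured 75.5, 75.5 and 78.1 CPM in EPZ5676 and 66.6, 71.9 and 70.6 CPM in ethanol. All EPZ5676 values lay above all ethanol values, and the log2 fold change, with its SE, was 0.13 ± 0.08 (adjusted p = 0.734). Ndufs3, another subunit of the arm that reaches into the matrix, had a log2 fold change of 0.12 ± 0.10 (adjusted p = 0.832) and overlapping ranges of 26.6 to 29.9 CPM in EPZ5676 and 24.3 to 26.7 CPM in ethanol. Its exons overlap Kbtbd4 on the opposite strand by 88 bases, so the reads of these genes cannot be told apart if strand was not used in counting. A pseudogene is also at least 95% identical over 75.7% of the Ndufs3 transcript.

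Ndufa12 had the highest fold change of all members that passed the filter. It encodes an accessory subunit of complex I and is related in sequence to the assembly factor Ndufaf2, which occupies its place before the complex is complete. Its level was 10.8, 11.9 and 11.1 CPM in EPZ5676 and 7.32, 8.63 and 7.26 CPM in ethanol. Every EPZ5676 library was above every ethanol library. The log2 fold change was 0.54 ± 0.14, with a 95% interval of 0.23 to 0.86, an unadjusted p of 0.00394 and an adjusted p of 0.586 by edgeR. It lay between 0.50 and 0.62 under the 17 alternatives. The adjusted p was under 0.05 only in the fit with the replicate block and without pair 2, at 0.0227. A processed pseudogene, Gm15920, is at least 95% identical over 36.2% of the Ndufa12 transcript, and how reads with several alignments were counted is not given in the sources used here. Ndufaf2 measured 20.6, 15.7 and 16.1 CPM in EPZ5676 and 21.6, 17.4 and 19.8 CPM in ethanol, with overlapping groups, a log2 fold change of -0.17 ± 0.15 and an adjusted p of 0.824.

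Among the other complex I accessory subunits the differences were smaller, and the 28 tested gave 16 fold changes above 0 and 12 below. Ndufb10, in the membrane arm, measured 57.1, 54.7 and 52.0 CPM in EPZ5676 and 50.6, 43.3 and 49.3 CPM in ethanol. The groups did not overlap, the log2 fold change was 0.19 ± 0.09 and the adjusted p was 0.680. Ndufb3, in the same arm, measured 32.1, 29.5 and 32.9 CPM in EPZ5676 and 38.6, 34.3 and 34.1 CPM in ethanol. All its EPZ5676 values were the lower ones, with a log2 fold change of -0.18 ± 0.10 and an adjusted p of 0.724. The summed level of the accessory subunits was 1540 ± 75.4 CPM in EPZ5676 and 1525 ± 118 CPM in ethanol.

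Of the 8 complex I assembly factors, which help build the complex and are not part of it when finished, 6 had fold changes below 0 and 2 above. Their summed level was 146, 143 and 146 CPM in EPZ5676 and 157, 149 and 158 CPM in ethanol. Every EPZ5676 sum was below every ethanol sum, and the sum was not tested. Summed tissue-restricted isoforms of complex IV were also lower without overlap, at 42.9 to 45.2 against 46.7 to 50.6 CPM. Sums of the other member groups overlapped. Outside the rule, summed ATP synthase genes were higher in EPZ5676 without overlap (3841 to 4044 against 3585 to 3775 CPM). So were the summed electron carriers and related genes (517 to 531 against 421 to 489 CPM). Ndufaf1, which acts in building the membrane arm, measured 26.4, 30.4 and 27.4 CPM in EPZ5676 and 31.6, 37.0 and 29.9 CPM in ethanol. Its EPZ5676 value was the lower in each same-numbered pair, the ranges overlapped, and the log2 fold change was -0.22 ± 0.12 with an adjusted p of 0.706. Ndufaf3, which acts in assembly of the quinone module, had 3.07, 2.69 and 3.22 CPM in EPZ5676 and 2.75, 1.46 and 2.61 CPM in ethanol. Its ranges overlapped slightly, and the log2 fold change was 0.38 ± 0.27 (adjusted p = 0.782). The 16 assembly factors of complexes I, II and III whose symbols lie outside the rule had a median of -0.064, with 5 above 0 and 11 below. The lowest unadjusted p among these was that of Timmdc1, at 0.049 with a log2 fold change of 0.20 ± 0.09 and an adjusted p of 0.670.

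Complex II is succinate dehydrogenase, and the log2 fold changes of its 4 genes lay between -0.02 and 0.09. Sdha, its flavoprotein, measured 405, 350 and 431 CPM in EPZ5676 and 393, 328 and 393 CPM in ethanol. The ranges overlapped, and in both groups library 2 was the lowest. Its log2 fold change was 0.09 ± 0.10, with an adjusted p of 0.877. Sdhb, the iron-sulfur subunit, ranged from 113 to 124 CPM in EPZ5676 and from 99.2 to 124 CPM in ethanol, and Sdhd, a membrane anchor, from 116 to 122 CPM in EPZ5676 and from 104 to 125 CPM in ethanol. Their adjusted p-values were 0.937 and 0.969.

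In complex III, 7 of 8 subunits had a fold change above 0, and the summed level was 852 ± 30.8 CPM in EPZ5676 and 811 ± 59.1 CPM in ethanol. Uqcrq, a small subunit, measured 49.2, 52.1 and 31.1 CPM in EPZ5676 and 36.7, 33.5 and 34.0 CPM in ethanol. EPZ5676 libraries 1 and 2 were above all ethanol libraries and EPZ5676 library 3 was below all of these. The log2 fold change was 0.35 ± 0.18, with an adjusted p of 0.703. In the fit with the replicate block and without pair 3 it was 0.53, with an adjusted p of 0.00305. Uqcrfs1, the Rieske iron-sulfur protein, had a log2 fold change of 0.11 ± 0.10 (adjusted p = 0.832), and Uqcrc2, a core protein, 0.07 ± 0.08 (adjusted p = 0.866). The exons of Uqcrc2 overlap those of Pdzd9 on the opposite strand by 504 bases.

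Cyc1, cytochrome c1, is also a subunit of complex III, although its symbol falls outside the rule. It measured 263, 249 and 256 CPM in EPZ5676 and 217, 189 and 210 CPM in ethanol. The groups were well separated, and the log2 fold change was 0.32 ± 0.07 with an adjusted p of 0.532. With the replicate block it was 0.32 ± 0.05 and passed the threshold at an adjusted p of 0.0485. Cyc1 was 1 of 9 tested electron carriers and related genes outside the rule. The others were Cycs, Cyct, Etfa, Etfb, Etfdh, Dhodh, Coq7 and Coq9. Of the 9 log2 fold changes, 5 were above 0 and 4 below, with a median of 0.03. Cyct, the testis form of cytochrome c, measured 33.4, 29.6 and 35.1 CPM in EPZ5676 and 25.5, 20.0 and 28.0 CPM in ethanol, also without overlap. Its log2 fold change was 0.41 ± 0.14, with an adjusted p of 0.616, or 0.0642 with the block. Etfb, the beta subunit of the electron transfer flavoprotein, lay the other way without overlap, with 11.2, 10.7 and 11.5 CPM in EPZ5676 and 14.9, 12.04 and 16.1 CPM in ethanol. Its log2 fold change was -0.37 ± 0.14, with an adjusted p of 0.645, or 0.161 with the block. Etfa, the alpha subunit of the same flavoprotein, was higher without overlap, at 65.4 to 72.1 CPM in EPZ5676 and 59.0 to 64.6 CPM in ethanol (adjusted p = 0.727). Cyct is also a spermatid marker, and the other 8 spermatid markers summed to 7.26, 6.75 and 7.41 CPM in EPZ5676 and 7.32, 7.17 and 7.74 CPM in ethanol, with overlapping ranges. Of these, Gapdhs was at 4.91, 4.64 and 4.58 CPM in EPZ5676 and 4.93, 5.54 and 5.22 CPM in ethanol, without overlap (adjusted p = 0.861). Prm1 and Prm2 had at most 4 counts in any library.

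Of the 11 widely expressed complex IV subunits, 8 had fold changes above 0 and 3 below, and none passed the test. Cox4i1, a regulatory subunit, measured 595, 537 and 516 CPM in EPZ5676 and 540, 435 and 523 CPM in ethanol. The ranges overlapped, with a log2 fold change of 0.14 ± 0.10 and an adjusted p of 0.784. Cox5b, a zinc-binding subunit on the matrix side, measured 39.4, 31.3 and 27.0 CPM in EPZ5676 and 29.1, 22.7 and 30.6 CPM in ethanol. EPZ5676 was the higher in pairs 1 and 2 and the lower in pair 3, as for Uqcrq. The log2 fold change was 0.24 ± 0.17, with an adjusted p of 0.782, against 0.45 and 0.0148 in the fit with the replicate block and without pair 3. Cox7c, a small membrane subunit, showed the same order across pairs at a lower level, 5.88, 4.54 and 2.78 CPM in EPZ5676 and 3.20, 3.53 and 3.70 CPM in ethanol, and a log2 fold change of 0.34 ± 0.27 (adjusted p = 0.810). Ndufa4, named for complex I but now placed in complex IV, was close to level, with 127, 123 and 128 CPM in EPZ5676 and 126, 115 and 126 CPM in ethanol and an adjusted p of 0.917.

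**Figure D3:**
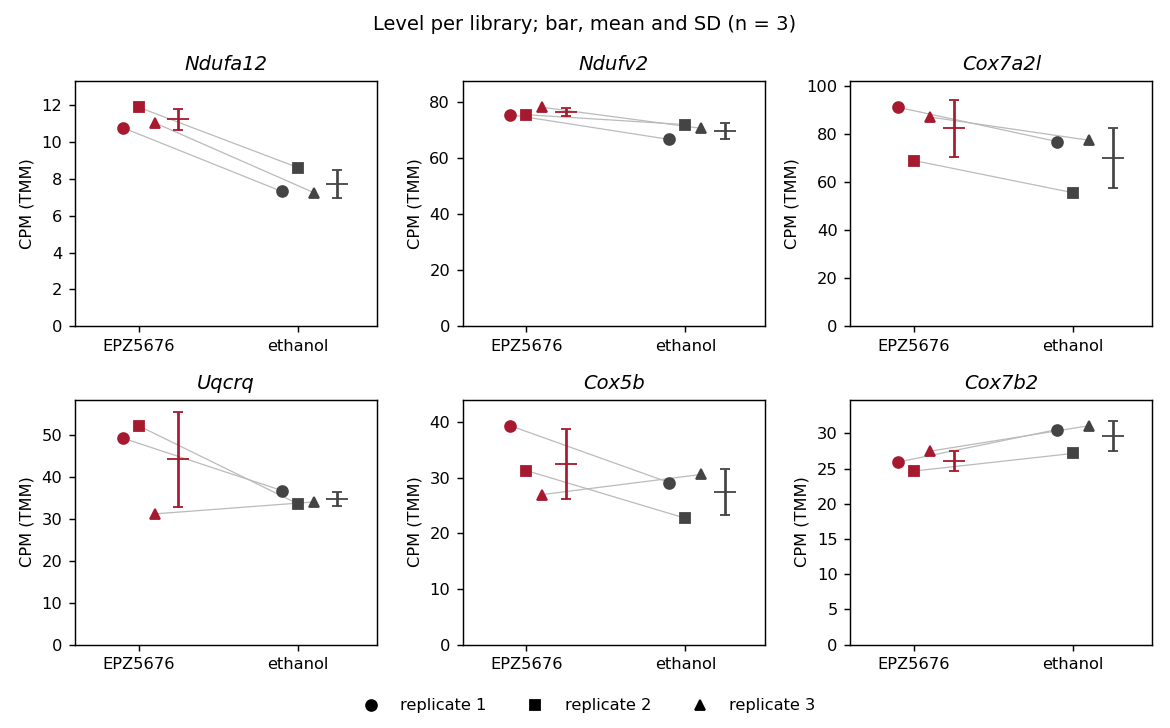
CPM in each library (y axis, from 0) for 6 members, with EPZ5676 left of ethanol; grey lines join libraries of the same number and bars give the mean and SD of 3. In Ndufa12 and Ndufv2 the groups do not overlap, while EPZ5676 replicate 3 (triangle) lies below its ethanol counterpart in Uqcrq and Cox5b.

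The low values in EPZ5676 library 3 were shared by some other members. It was the lowest of its group for 26 of 72 members (36.1%), against 34.6% of all genes. It was the highest for 27 of the 72, against 33.8% of all genes. On a log2 scale, this library lay below the mean of EPZ5676 libraries 1 and 2 by 0.89 for Ndufa4l2, 0.88 for Cox7c, 0.82 for Ndufaf8, 0.70 for Uqcrq, 0.59 for Uqcr11 and 0.58 for Ndufs7. The deviation had a median of -0.098 over the 36 members with transcripts under 800 bases and 0.081 over the 36 longer ones. Across the 72 members it correlated with log2 transcript length at r = 0.35 and with transcript GC content at r = -0.42, and over 14527 genes the values were 0.12 and -0.37. These points share 3 libraries and genes are not independent replicates. The transcripts of Uqcrq, Cox5b and Cox7c have 1521, 865 and 540 bases, so Uqcrq and Cox5b are among the longer 36. Their GC contents are 50.2%, 49.0% and 46.7%. The part of length and GC content in the differences of these 3 genes was not tested.

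**Figure D4:**
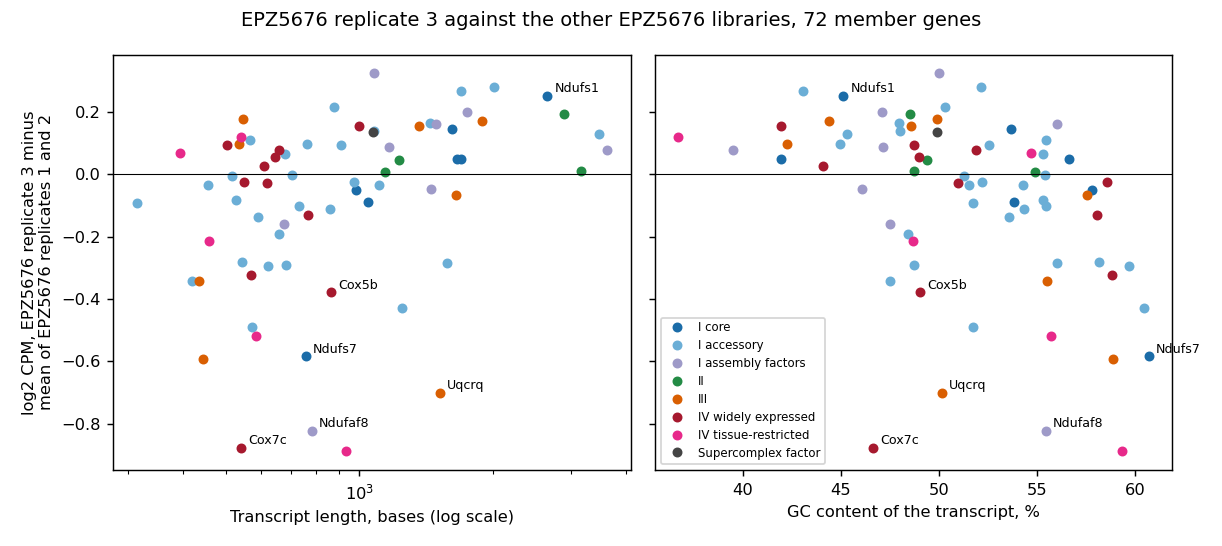
Log2 CPM of EPZ5676 replicate 3 minus the mean of EPZ5676 replicates 1 and 2 (y axis) for 72 members, against transcript length (left, log scale) and transcript GC content (right). Cox7c, Ndufaf8 and Uqcrq lie lowest among the labelled genes, and the correlation is 0.35 with log2 length and -0.42 with GC content.

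The tissue-restricted isoforms of complex IV were mostly scarce. Levels between genes were compared as CPM per kilobase of the GENCODE transcript. Cox7b2, a testis isoform, was the exception, at 78.0%, 91.0% and 82.2% of the level of Cox7b per kilobase in EPZ5676 and 98.8%, 104% and 97.6% in ethanol. The ethanol ratios were all above the EPZ5676 ratios. The ratio depends on the annotated transcript lengths, and 24.0% of the Cox7b transcript lies in near-identical stretches of 2 pseudogenes, while Cox7b2 has none. The level of Cox7b2 itself was 25.9, 24.7 and 27.5 CPM in EPZ5676 and 30.6, 27.2 and 31.1 CPM in ethanol. It was lower in the EPZ5676 library of each pair with a small overlap between the groups, and the log2 fold change was -0.19 ± 0.10 (adjusted p = 0.725).

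The other testis isoforms were present at a few percent of their counterparts per kilobase. Cox8c stood at 5.12% ± 0.600 of Cox8a in EPZ5676 and 4.47% ± 1.11 in ethanol (SD, n = 3 each). It measured 5.32, 5.12 and 4.48 CPM in EPZ5676 and 5.49, 3.36 and 3.70 CPM in ethanol, with overlap and a log2 fold change of 0.25 ± 0.22 (adjusted p = 0.832). Cox6b2 stood at 3.50% ± 1.61 of Cox6b1 in EPZ5676 and 3.58% ± 1.5 in ethanol. It measured 4.19, 7.53 and 3.90 CPM in EPZ5676 and 4.88, 7.90 and 4.37 CPM in ethanol. The libraries numbered 2 were thus the highest of both groups, as for the summed fibroblast markers. They were also highest for the 8 summed spermatocyte markers, at 915 CPM in EPZ5676 and 875 CPM in ethanol. The other libraries had 771 to 813 CPM of these. Summed peritubular and smooth muscle markers and summed macrophage markers had the same order. The log2 fold change of Cox6b2 was -0.10 ± 0.32 (adjusted p = 0.960).

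Isoforms known from other tissues were also near the lower end. Cox7a1, the heart and skeletal muscle form, had the lowest fold change of the members tested. It measured 5.93, 5.59 and 6.04 CPM in EPZ5676 and 8.59, 5.88 and 8.21 CPM in ethanol. Ethanol libraries 1 and 3 were above all EPZ5676 libraries and ethanol library 2 lay among these. The log2 fold change was -0.37 ± 0.18, with an adjusted p of 0.680, and Cox7a1 stood at 5.82% ± 0.0531 of Cox7a2 per kilobase in EPZ5676 and 7.30% ± 0.963 in ethanol. Ndufa4l2, a hypoxia-inducible relative of Ndufa4, ranged from 0.536 to 1.22 CPM in EPZ5676 and from 0.610 to 1.46 CPM in ethanol, and its log2 fold change was -0.01 ± 0.43 (adjusted p = 0.998). Below the filter, Cox4i2, the lung form, had 9, 45 and 5 counts in EPZ5676 and 6, 15 and 5 in ethanol. The muscle form Cox6a2 had 4, 12 and 4 counts in EPZ5676 and 2, 2 and 0 in ethanol, which also do not overlap as CPM (0.195 to 0.218 in EPZ5676 and 0 to 0.112 in ethanol), and the muscle form Cox8b had 2, 2 and 1 in EPZ5676 and 1, 0 and 2 in ethanol. Cox6a2 overlaps exons of Itgad on the opposite strand by 70 bases. The counts of Cox6a2 and Cox8b are mostly at or near the 3 counts that a 0 allows, and no fold is given.

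**Figure D5:**
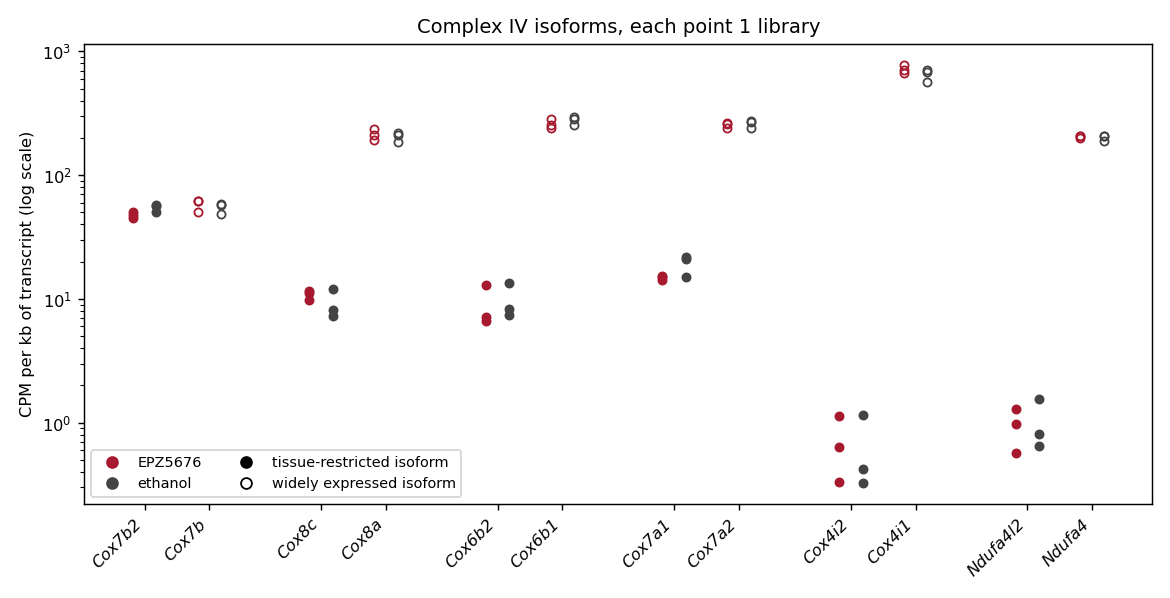
CPM per kilobase of transcript (y axis, log scale) of 6 complex IV isoform pairs in each library, with EPZ5676 left of ethanol; filled points are tissue-restricted and open points widely expressed isoforms. Cox7b2 reaches the level of Cox7b, while the other 5 restricted isoforms lie more than 10-fold below their counterparts.

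Cox7a2l, which tethers complexes III and IV into supercomplexes, measured 91.0, 68.8 and 86.9 CPM in EPZ5676 and 76.7, 55.4 and 77.3 CPM in ethanol. EPZ5676 was the higher in each same-numbered pair, and both groups were lowest in library 2. The log2 fold change was 0.23 ± 0.15, with an adjusted p of 0.769. With the replicate block the SE was 0.06 and the adjusted p 0.112.

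Levels varied far more between members than between groups. Per kilobase, Cox4i1 was the highest of the 59 widely expressed subunits of complexes I to IV, at 719 ± 53.5 CPM per kb in EPZ5676 and 653 ± 73.6 in ethanol, followed by Uqcrh at 440 ± 49.8 in EPZ5676 and 422 ± 43.0 in ethanol. The next, Cox6a1, Cox6b1 and Cox7a2, averaged 290, 269 and 259 CPM per kb over the 6 libraries, and these neighbours did not differ beyond their spread. At the other end, 5 subunits lay under 10 CPM per kb: Ndufa12 at 8.55, Cox7c at 7.29, Ndufb4 at 3.50, Ndufab1 at 1.46 and Ndufs5, which was listed at 0 counts in all 6 libraries. A count of 0 allows up to 0.0544 CPM in the deepest library and up to 0.168 CPM in the shallowest, for counting error only. All 5 are among the 13 subunits with a pseudogene copy at least 95% identical over at least 100 bases, while 0 of the 46 without such a copy lay under 10. The medians were 44.0 CPM per kb with a copy and 84.3 without. The Ndufab1 value rests on an annotated transcript of 3479 bases, of which 13.5% lies in near-identical stretches of other genes. Before division by length, Ndufab1 averaged 5.09 CPM, above Cox7c at 3.94 and Ndufb4 at 3.40. These 5 were singled out after their values were seen, and the part of reads shared with pseudogenes in their levels was not tested.

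Neighbouring pathways were read from the same fit, and no gene of these lists was called in it. The 17 nuclear ATP synthase genes, the inhibitory factor Atpif1 included, had a median log2 fold change of 0.075. Of these, 13 lay above 0 and 4 below. Atp5a1, alpha subunit of the ATP synthase catalytic head, measured 912, 912 and 887 CPM in EPZ5676 and 811, 771 and 789 CPM in ethanol. The groups did not overlap, and the log2 fold change was 0.19 ± 0.06 with an adjusted p of 0.596. The 17 tested complex IV assembly factors had a median of -0.011, and Sco1, a copper chaperone with the smallest p of the list, had a log2 fold change of -0.18 ± 0.12 (adjusted p = 0.769). The 14 tested regulators of mitochondrial biogenesis had a median of 0.0042, and Polg, the mitochondrial DNA polymerase, a log2 fold change of 0.12 ± 0.07 (adjusted p = 0.741).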

How the data were processed

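Whole-number counts per gene symbol were used as deposited by the authors. The submitters' processing notes name the build mm9 and the tools Bowtie, STAR, edgeR and featureCounts; no source used here gives their settings, versions, annotation or use of strand. After filterByExpr, counts were scaled by TMM in R 4.3.3 and tested 2-sided with edgeR 4.0.16 (quasi-likelihood, group term, Benjamini-Hochberg over 14855 genes). DESeq2 1.42.0, limma-voom (limma 3.58.1) and other scalings and filters were alternatives, 17 in all. The test was also run on simulated counts. Those for the fit without the block held no deviation shared by libraries of the same number, unlike these data. The members, gene lists and tests were chosen with earlier results of these data known. The rule named the 3 members of each group with the smallest p, all tissue-restricted isoforms, Cox7a2l, Ndufa4, the highest and lowest fold change, and 1 gene per other list or any called. Cyct, Etfa, Etfb, Gapdhs, the genes with the NRF1 consensus, the 5 lowest subunits and the single cell type markers were added after their values were seen. For 1 gene no result is reported here.

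Libraries with the same number correlated in their deviations from the group means at 0.411, 0.614 and 0.335 over all genes, and other combinations lay from -0.494 to 0.278. The same-numbered values over all genes exceed the 0.1 set for treating numbers as pairs. Over the 72 members they were 0.166, 0.524 and 0.327, and other combinations lay from -0.530 to 0.249. Unless the block or another tool is named, SEs, intervals and adjusted p-values are from the edgeR fit without the block. P-values measure the spread between these libraries. Transcript lengths, pseudogene copies (BLAST 2.17.0) and exon overlaps came from GENCODE M21 on GRCm38, not mm9, by symbol. Mitochondrially encoded transcripts and the repeat table were not analysed here.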

Additional observations from a re-analysis of the deposited data

How the results depend on the processing

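Depth and 3 libraries per group limit the results to differences well above the median SE of 0.11 on the log2 scale. The count of all genes called, 0, was 97 with the replicate block, 50 with DESeq2, 10 without both libraries numbered 2, 795 with the block without pair 2 and 761 with the block without pair 3. It was 0 with the block without pair 1 by edgeR, where 1169 genes had an unadjusted p under 0.05. Leaving out any single library gave 0 called genes and 0 called members. The count of members called was 1 with the block without pair 2 (Ndufa12) and 2 with the block without pair 3 (Cox5b and Uqcrq), and 0 under the other 15 alternatives. The median log2 fold change of all members lay between -0.036 and 0.065 when single libraries were left out. That of tissue-restricted isoforms lay between -0.34 and 0.14.

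Of the genes named with a fold change, 7 with values near 0 changed sign, and the cause was not tested. Ndufa4l2 lay at 0.056 with limma-voom, 0.077 without both libraries numbered 2, 0.068 with the block without pair 2 and 0.037 with the block without pair 3, and between -0.36 and 0.43 with single libraries left out. Cox6b2 lay between -0.49 and 0.20 with single libraries left out, Sdhb between -0.054 and 0.11, Sdhd between -0.063 and 0.072, Ndufa4 between -0.0029 and 0.063, Ndufa11 between -0.073 and 0.16 and Ndufb4 between -0.14 and 0.18. Without both libraries numbered 2, Sdhb was at -0.015, Sdhd at -0.035 and Ndufa11 at -0.076. With the block and without pair 2, Sdhb was at -0.015, Sdhd at -0.035 and Ndufa11 at -0.085. Ndufb4 was at -0.049 with limma-voom and -0.13 with the block without pair 1. The replicate block changed no other call of a named gene than that of Cyc1.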
